A study of Mus musculus with 7 samples.

Results

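Ghrl, Sst, Gast, Hdc and Tph1, 5 of the 18907 genes listed in the count tables besides spike-in RNAs, were followed from well to well in single cells of the mouse stomach. The 5 genes were chosen by name: their products are 3 peptide hormones and enzymes of histamine and serotonin synthesis. Glands were taken from the pylorus (3 plates) and the corpus (4 plates) of wild-type, untreated C57BL/6 mice, and living cells that excluded the dye DAPI were sorted singly into 384-well plates and sequenced by SORT-seq, a plate form of CEL-seq2 that counts 3′ ends with unique molecular identifiers (UMIs). The labels give neither the age of the mice nor which animals a plate holds, so p-values measure the spread between plates, which may be technical. Wells with at least 1000 UMIs were kept, which left 983 wells of pylorus and 1252 of corpus plates out of 2688 wells in all.

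The endocrine cells of the stomach sit singly between the other cells of the gland, and each type is named by what it secretes. Ghrelin (Ghrl), made by X/A-like cells, stimulates appetite, and somatostatin (Sst), made by D cells, restrains the other gastric endocrine cells and acid secretion. Gastrin (Gast) from the G cells of the antrum acts through the receptor Cckbr on the enterochromaffin-like cells of the corpus, where histidine decarboxylase (Hdc) makes the histamine that drives the parietal cells. Tryptophan hydroxylase 1 (Tph1) is an enzyme of serotonin synthesis in enterochromaffin cells, and in rodents also in mast cells.

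The upstream windows of Ghrl and Hdc, the pair most often called in the same well, are shown with a short stretch before Sst, which was called without another member in 83.3% of its wells. They come from the RefSeq table of build GRCm38.p6 and are not on the build of the count tables. Capitals mark the E-box CANNTG, a core bound by basic helix-loop-helix factors such as Neurod1, in the Ghrl and Hdc windows, and the cAMP response element TGACGTCA before Sst.
Ghrl, chr6:113719912-113720161, minus strand: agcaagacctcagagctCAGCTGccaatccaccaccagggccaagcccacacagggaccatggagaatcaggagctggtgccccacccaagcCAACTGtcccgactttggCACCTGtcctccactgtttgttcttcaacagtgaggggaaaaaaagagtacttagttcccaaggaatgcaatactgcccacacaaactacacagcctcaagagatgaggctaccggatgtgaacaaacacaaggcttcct
Hdc, chr2:126618679-126618928, minus strand: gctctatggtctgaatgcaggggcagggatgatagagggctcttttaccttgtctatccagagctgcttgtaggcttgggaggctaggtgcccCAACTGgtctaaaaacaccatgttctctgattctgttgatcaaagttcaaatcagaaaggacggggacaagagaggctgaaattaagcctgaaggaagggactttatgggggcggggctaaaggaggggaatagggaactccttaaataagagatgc
Sst, chr16:23890875-23890902, minus strand: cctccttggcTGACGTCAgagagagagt
In the 250 bases before the outermost RefSeq start, CANNTG stood 3 times for Ghrl, 1 time each for Hdc, Sst and Gast, and 0 times for Tph1, against at least 1 copy in 66.2% of 32851 such windows. TGACGTCA was found only before Sst among the 5 genes, on either strand, and in 1.55% of all windows. TATAA or its complement was found only before Gast, and in 22.8% of all windows. The windows of Ghrl and Hdc hold no annotated exon, and 114 bases of the window before Sst belong to an exon of Sst in the annotation. Matched letters describe the window and say nothing of whether a factor binds there.

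The tables held 2615624 to 9036977 UMIs per pylorus plate and 2693140 to 9498860 per corpus plate in the kept wells. Pylorus replicate 1 and corpus replicate 1 stood apart, with 6.55% and 4.27% of their UMIs in spike-in RNAs against 0.256% to 0.426% in the other 5 plates, and with the lowest median depths, of 8240.0 and 6898.5 UMIs per kept well. No 2 kept wells held identical counts. Free RNA can spread over the wells of a pooled plate, so a well was called above background for a gene only with at least 5 UMIs, at least 5 times the plate's own background rate and a Poisson tail under 0.0001. The same rule over 6 granin genes, which mark endocrine secretory granules, called 296 granin wells, and over 8 mast cell genes it called 113 mast wells. No well was in both sets.

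Ghrl had the most UMIs of the 5 genes in all kept wells, 101543, followed by Sst with 31219, Hdc with 20631, Gast with 3340 and Tph1 with 300. In CPM, the UMIs of a gene scaled to a common total per plate, Ghrl stood at 1294, 3575 and 3147 CPM in pylorus replicates 1 to 3 and at 610.1, 4166, 957 and 559.8 CPM in corpus replicates 1 to 4. Corpus replicate 2 was the highest plate of all, and the regions overlapped. Sst stood at 1597, 188 and 2.21 CPM in the pylorus plates and 1672, 1385, 262 and 1168 CPM in the corpus plates. Pylorus replicate 3, with 20 Sst UMIs and never more than 4 in a well, was far below the rest. Hdc stood at 184, 432 and 374 CPM in the pylorus plates, inside the range of 34.9, 1531, 179 and 272 CPM in the corpus plates. Tph1 was low everywhere, at 2.68, 8.60 and 8.74 CPM in the pylorus plates and 6.68, 0, 7.79 and 5.77 CPM in the corpus plates. Gast was found in the library labelled corpus replicate 1 alone, at 1240.2 CPM, although G cells belong to the antrum. The other 6 tables list no Gast row, and 3 UMIs would be 0.332 to 1.15 CPM in the pylorus plates and 0.316 to 0.510 CPM in corpus replicates 2 to 4.

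**Figure D1:**
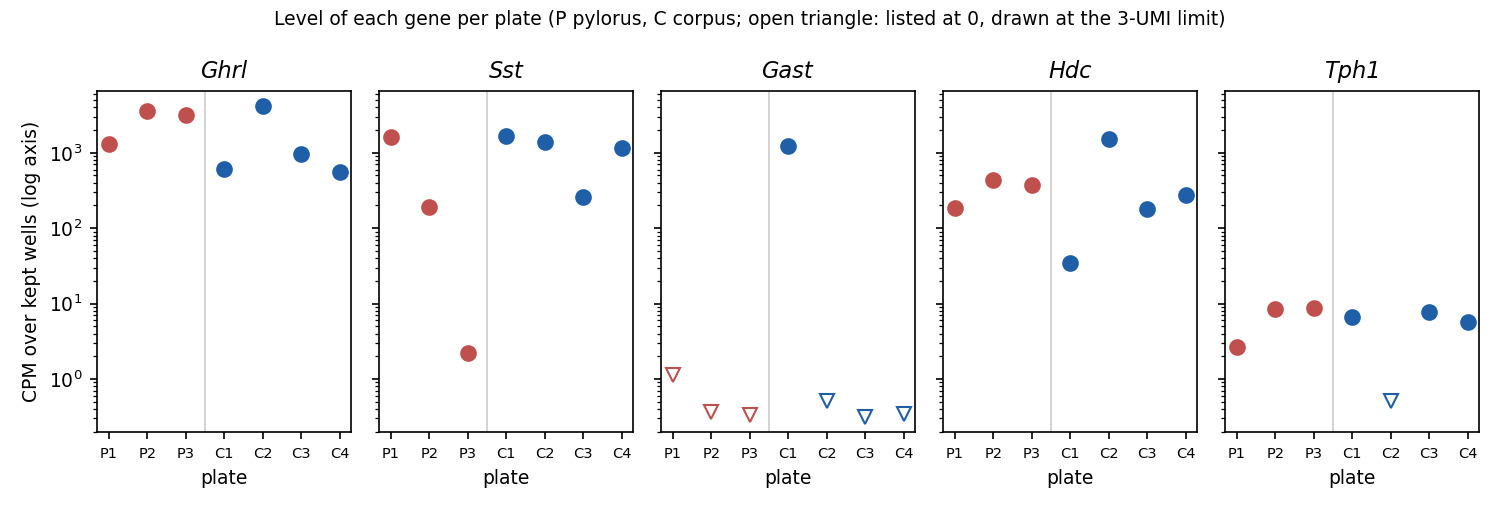
CPM of each gene over the kept wells of each plate, on a log axis, with the 3 pylorus plates (P, red) left of the 4 corpus plates (C, blue). Open triangles mark plates listed at 0, drawn at the level of 3 UMIs; Gast is seen in C1 only, at 1240.2 CPM, and Sst drops to 2.21 CPM in P3.

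None of the members differed between the regions beyond the spread of the plates. In limma, fitted to log2(CPM + 2) of 12003 genes with TMM scaling, the log2 difference of pylorus minus corpus was 1.22 ± 0.70 (SE) for Ghrl, -3.03 ± 1.70 for Sst, 0.48 ± 1.06 for Hdc and 0.44 ± 0.59 for Tph1 (limma, adjusted p = 0.99996 for each). Gast, seen in 1 plate, did not pass the filter on low counts. The fit called 0 of the 4 members tested, against 0.0167% of all genes tested, which was 2 genes, with 153 at an unadjusted p under 0.05; 0 genes were called when any plate but pylorus replicate 2 was left out. Those 2 genes, named after their values were seen, were Bpifb1, a secreted protein of the BPI fold family, and Lrp2, an endocytic receptor. In sums over a plate, fewer cells of a type and less RNA per cell cannot be told apart.

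Ghrl was above background in 3.20%, 8.52% and 7.05% of the kept wells of pylorus replicates 1 to 3, which were 8, 31 and 26 wells. In corpus replicates 1 to 4 the shares were 3.96%, 22.2%, 5.54% and 6.29%, or 11, 62, 20 and 21 wells. Hdc ran alongside it, with 13, 37 and 34 wells in the pylorus plates and 5, 77, 31 and 28 wells in the corpus plates. Corpus replicate 2 held the most wells of both genes and 102 of the 296 granin wells. Sst was above background in 3, 2 and 0 wells of the pylorus plates and 8, 6, 1 and 4 wells of the corpus plates. Tph1 was above background in 1, 4 and 5 wells of the pylorus plates and 3, 0, 4 and 3 wells of the corpus plates, and Gast in 6 wells of corpus replicate 1. The mean share was 6.25% ± 2.75 in pylorus plates and 9.50% ± 8.54 in corpus plates for Ghrl, and 8.19% ± 2.64 in pylorus plates and 11.6% ± 11.1 in corpus plates for Hdc (SD, n = 3 and 4). For Sst it was 0.583% ± 0.601 in pylorus plates and 1.63% ± 1.13 in corpus plates (SD, n = 3 and 4). No share differed between regions (exact two-sided permutation test over 35 splits of the plates, unadjusted p = 0.829 for Ghrl, 0.857 for Hdc, 0.229 for Sst, 0.657 for Tph1 and 1 for Gast; the smallest p this design allows is 0.0286).

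Single Ghrl UMIs were almost everywhere in most plates and did not mark a cell type. At least 1 Ghrl UMI was seen in 62.8%, 99.5% and 99.5% of the kept wells of pylorus replicates 1 to 3 and in 31.3%, 100%, 97.5% and 88.9% of those of corpus replicates 1 to 4. Wells rich in pit cell mucus genes, which should lack ghrelin, held a Ghrl UMI about as often: 61.9%, 100% and 98.6% in the pylorus plates and 33.3%, 100%, 100% and 94.3% in the corpus plates. With every well thinned to 1000 UMIs, a Ghrl UMI was seen in 18.8%, 65.9% and 65.0% of wells of the pylorus plates and 11.2%, 50.2%, 31.6% and 15.9% of wells of the corpus plates. The background rate of Ghrl was 1.32, 9.55 and 11.8 UMIs per 10000 in the pylorus plates and 0.373, 4.40, 3.01 and 1.41 in the corpus plates. That rate accounted for 10.2% to 37.6% of all Ghrl UMIs in the pylorus plates and 6.12% to 31.5% in the corpus plates. Gast showed the same spread within its single library, where 138 of 278 kept wells held a Gast UMI and only 6 were above background. The spread of Hdc and Sst varied by plate. A Hdc UMI was seen in 6.12% of kept wells of corpus replicate 1 and 89.2% of corpus replicate 2. For Sst the lowest and highest shares were 4.34% in pylorus replicate 3 and 97.9% in corpus replicate 4.

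Few pairs of the 5 genes were called in the same well. Of the 10 possible pairs only 2 were found above background in the same well, Ghrl with Hdc in 141 wells and Ghrl with Sst in 4. No well was above background for 3 members, 145 wells were so for 2 and 164 for 1. Gast and Tph1 were exclusive in all their 6 and 20 wells. Sst stood without another member in 20 of 24 wells (83.3%), Hdc in 84 of 225 (37.3%) and Ghrl in 34 of 179 (19.0%). These shares depend on the call. As a mean over plates, Ghrl stood alone in 24.6% of its wells, against 59.2% with a fixed level of 50 UMIs per 10000 and 63.4% with wells thinned to 1000 UMIs. Hdc stood alone in 43.2% of its wells, against 56.6% with the fixed level and 56.7% with thinned wells. A share of 0 in these small sets is weak: 0 of 6 Gast wells and 0 of 20 Tph1 wells say little about rare pairs. The overlap expected by chance was not computed, so no pair at 0 wells is shown to be depleted, Sst with Hdc included. Wells above background for a pair were shallower than wells with no member and deeper than wells with 1 member in every plate. The median depth of the pair wells was 6637.5, 12914 and 16094 UMIs in pylorus replicates 1 to 3 and 3848, 17151, 12161 and 12015 UMIs in corpus replicates 1 to 4. Wells with 1 member had a median of 4520.0, 8121.5 and 11334 UMIs in the pylorus plates and 2279, 12796, 8017 and 9416.5 UMIs in the corpus plates. Wells with no member had a median of 8487, 23247 and 25328.5 UMIs in the pylorus plates and 7686, 23882, 26498.5 and 26866 UMIs in the corpus plates.

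**Figure D2:**
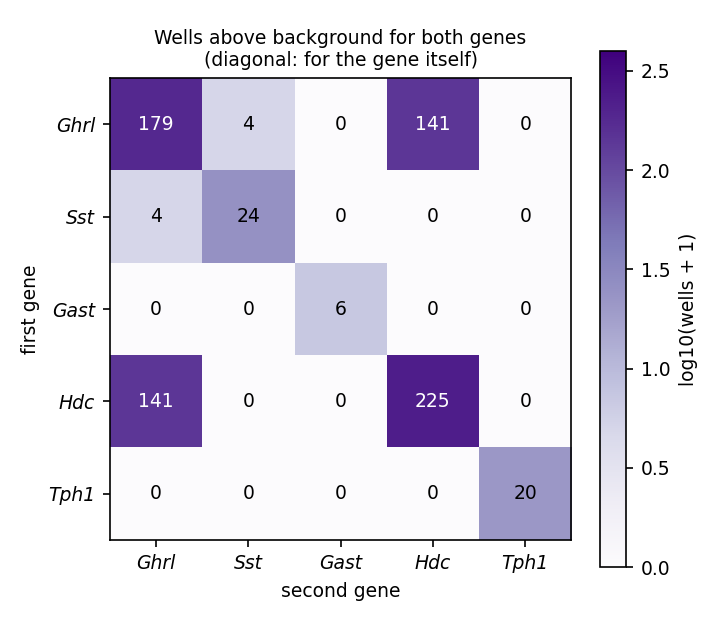
Number of kept wells, over all 7 plates, above background for each pair of genes, with the number for the gene itself on the diagonal; the colour is log10(wells + 1). Ghrl and Hdc share 141 wells, Ghrl and Sst 4, and every other pair 0.

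Ghrl and Hdc overlapped in every plate. The shared wells numbered 5, 23 and 20 in pylorus replicates 1 to 3, or 62.5%, 74.2% and 76.9% of the Ghrl wells and 38.5%, 62.2% and 58.8% of the Hdc wells. In corpus replicates 1 to 4 they numbered 2, 53, 19 and 19, or 18.2%, 85.5%, 95% and 90.5% of the Ghrl wells and 40.0%, 68.8%, 61.3% and 67.9% of the Hdc wells. All 141 shared wells were granin wells. The overlap depends on how high a level is asked for: it was 65 wells with the strict call of at least 10 UMIs and 10 times the background, 59 with a fixed level of 50 UMIs per 10000 for both genes, 46 with wells thinned to 1000 UMIs, and 88 without corpus replicate 2.

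Within the shared wells Ghrl was moderate. Its median was 81.3, 319 and 229.98 UMIs per 10000 in pylorus replicates 1 to 3 and 40.1, 90.8, 94.8 and 48.0 in corpus replicates 1 to 4. Hdc-only wells had Ghrl medians of 6.14, 20.9 and 25.6 UMIs per 10000 in the pylorus plates and 8.17, 11.5, 6.15 and 2.56 in the corpus plates, so they were above the background rate in all 7 plates without passing the call in each well. Reference wells rich in pit or parietal genes had Ghrl medians of 0.70, 7.25 and 8.88 in the pylorus plates and 0, 3.60, 2.28 and 1.09 in the corpus plates. The Hdc level was of the same order whether or not Ghrl was called. Its median was 83.8, 51.2 and 53.0 UMIs per 10000 in the shared wells of the pylorus plates and 62.8, 61.2, 34.5 and 39.2 in those of the corpus plates. In Hdc-only wells it was 38.6, 51.3 and 35.9 in the pylorus plates and 65.4, 56.8, 28.0 and 55.0 in the corpus plates.

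**Figure D3:**
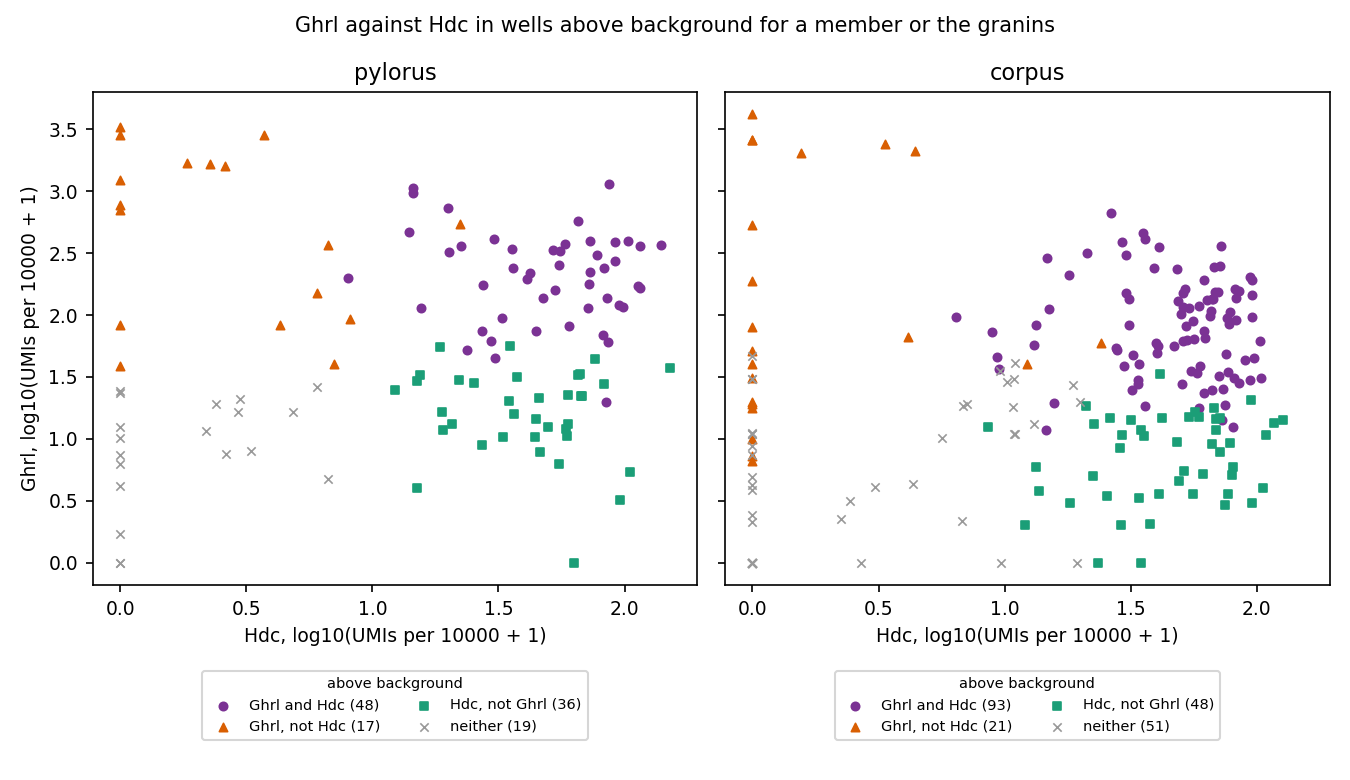
Ghrl against Hdc in each kept well above background for a member or for the granins, both as log10(UMIs per 10000 + 1), with pylorus plates on the left and corpus plates on the right. Wells above background for both genes (purple) are the largest group in both regions but not most of the wells drawn. The wells with the most Ghrl (orange, top left) have little or no Hdc.

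The wells with the most Ghrl were a different set. With a level of at least 1000 Ghrl UMIs per 10000, a bound chosen after seeing the data, there were 15 wells in 6 plates, and they held 38.4% of all Ghrl UMIs. All 15 were granin wells. Without a correction for UMI collisions, Ghrl took 41.8% of the UMIs of the highest, a corpus replicate 1 well with 573 Ghrl UMIs among 1372. UMIs of 6 bases limit the count of a gene in a well. Deep wells came near that limit, such as a pylorus replicate 3 well with 4056 Ghrl UMIs among 23809. Ghrl is therefore undercounted most in such wells. The order of the wells, the classes by level and the 38.4% share are uncorrected. Hdc was above background in 2 of the 15 (13.3%, 95% Wilson interval 3.74% to 37.9%) and was at 0 UMIs in 6. Below that level Hdc was above background in 25 of 30 Ghrl wells (83.3%, 66.4% to 92.7%) between 300 and 1000 per 10000, made up of 4 of 8 from 500 and 21 of 22 under 500, in 49 of 51 (96.1%, 86.8% to 98.9%) between 100 and 300, and in 65 of 83 (78.3%, 68.3% to 85.8%) under 100. These intervals cover counting error only and pool wells that share a plate. With the bound at 500 per 10000, Hdc was above background in 6 of 23 wells (26.1%), and without the spike-in-rich plates in 2 of 12 at the bound of 1000.

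**Figure D4:**
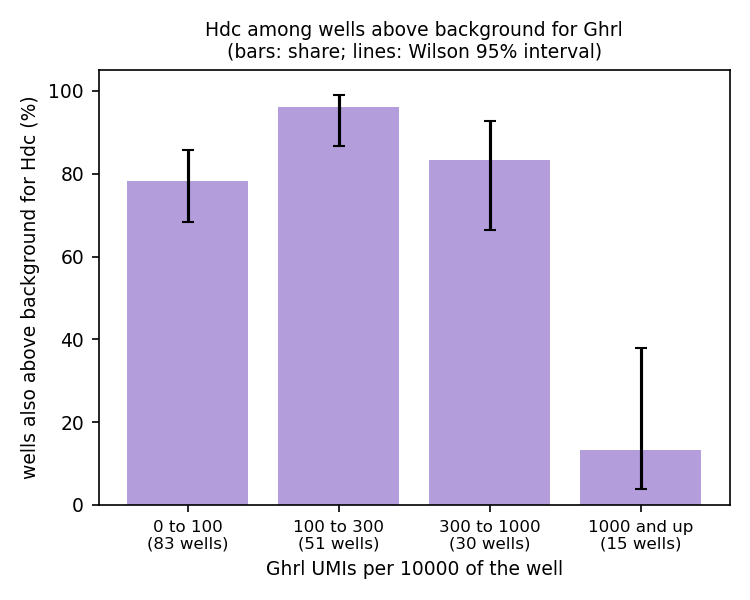
Share of wells above background for Ghrl that were also above background for Hdc, by the Ghrl level of the well in UMIs per 10000, over all 7 plates, with Wilson 95% intervals. The share is 78.3% to 96.1% in the lower 3 classes and 13.3% in the 15 wells from 1000 per 10000.

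The 34 Ghrl-only wells were compared with the 83 Hdc-only granin wells over genes that did not choose them. Only pylorus replicates 2 and 3 and corpus replicate 2 held at least 5 wells of each set, and each plate served as its own block in limma. Granins were above background in 25 of the 34 Ghrl-only wells, and in 2 of the 8 in corpus replicate 1, which is not in the fit; only the Hdc-only wells were chosen on granins. In the fit 20 of 21 Ghrl-only wells were granin wells. The Ghrl-only wells numbered 8, 6 and 7 in its plates and the Hdc-only granin wells 13, 14 and 24. Of 1681 genes tested, the fit called 55 higher and 45 lower in Ghrl-only wells, 5.95% in all. The 5 members and the 6 granins were left out of the test, because they chose the wells. CPM of genes in this fit carry its TMM scaling, and CPM of reference wells do not.

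Ceacam10, Acsl1 and Rbp4 were much higher in Ghrl-only wells. Ceacam10, of the CEACAM adhesion family, had 2028, 1763 and 2396 CPM in the Ghrl-only wells of pylorus replicates 2 and 3 and corpus replicate 2, against 14.1, 0 and 14.8 CPM in the Hdc-only wells (log2 difference 7.97 ± 0.54, SE; limma, adjusted p = 6.4e-05). Acsl1, which activates long-chain fatty acids to acyl-CoA, averaged 1711 ± 543 CPM in Ghrl-only wells and 36.5 ± 2.65 CPM in Hdc-only wells (SD over 3 plates; 5.43 ± 0.25, limma, adjusted p = 7.2e-06). The retinol carrier Rbp4 averaged 1216 ± 303 CPM in Ghrl-only wells and 40.1 ± 22.6 CPM in Hdc-only wells. All 3 plates went the same way for each of these genes. The calcium sensor Scgn, the transcription factor Neurod1 and the neurofilament gene Nefm had 109, 50 and 53 UMIs in the Ghrl-only wells of the 3 plates and 0 in the Hdc-only wells, which held 693625 UMIs in all against 228529. Set against a floor of 3 UMIs over all Hdc-only wells, they were at least 110.3-fold, 50.6-fold and 53.6-fold higher in Ghrl-only wells. The other called genes with the largest rises were Ugt2b34, Kctd12, the carboxypeptidase Cpb2 and the transcription factor Onecut2, with log2 differences of 3.11 to 3.53.

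Fst, Serpina7, Ahsg and Pappa2 were much lower in Ghrl-only wells. Fst, the activin antagonist follistatin, had 0, 13.3 and 0 CPM in the Ghrl-only wells of pylorus replicates 2 and 3 and corpus replicate 2, against 380.4, 357 and 531 CPM in the Hdc-only wells, which is 1 UMI against 341. Serpina7, known as thyroxine-binding globulin, averaged 18.1 ± 20.1 CPM in Ghrl-only wells and 1003 ± 329 CPM in Hdc-only wells (log2 difference -6.44 ± 0.80; limma, adjusted p = 0.0019). Ahsg, which encodes fetuin-A, averaged 23.3 ± 7.61 CPM in Ghrl-only wells and 1009.8 ± 73.4 CPM in Hdc-only wells, and Pappa2, a protease of insulin-like growth factor binding proteins, 47.3 ± 33.8 CPM in Ghrl-only wells and 1524 ± 328 CPM in Hdc-only wells. The groups did not overlap for any of these genes. Angiotensinogen (Agt), Lhfpl5, the neurosecretory protein gene Vgf, the zinc importer Slc39a8, Dhrs1 and Prune2 were lower in Ghrl-only wells by log2 differences of -4.27 to -2.92. Every direction was kept when a plate was left out, but the count fell to 32 genes without pylorus replicate 3, and Neurod1, Nefm, Ugt2b34, Kctd12, Onecut2, Lhfpl5, Vgf, Slc39a8 and Prune2 then no longer passed. Neurod1, Nefm, Kctd12, Onecut2 and Slc39a8 also did not pass without pylorus replicate 2, nor Ugt2b34, Kctd12, Onecut2 and Vgf without corpus replicate 2.

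**Figure D5:**
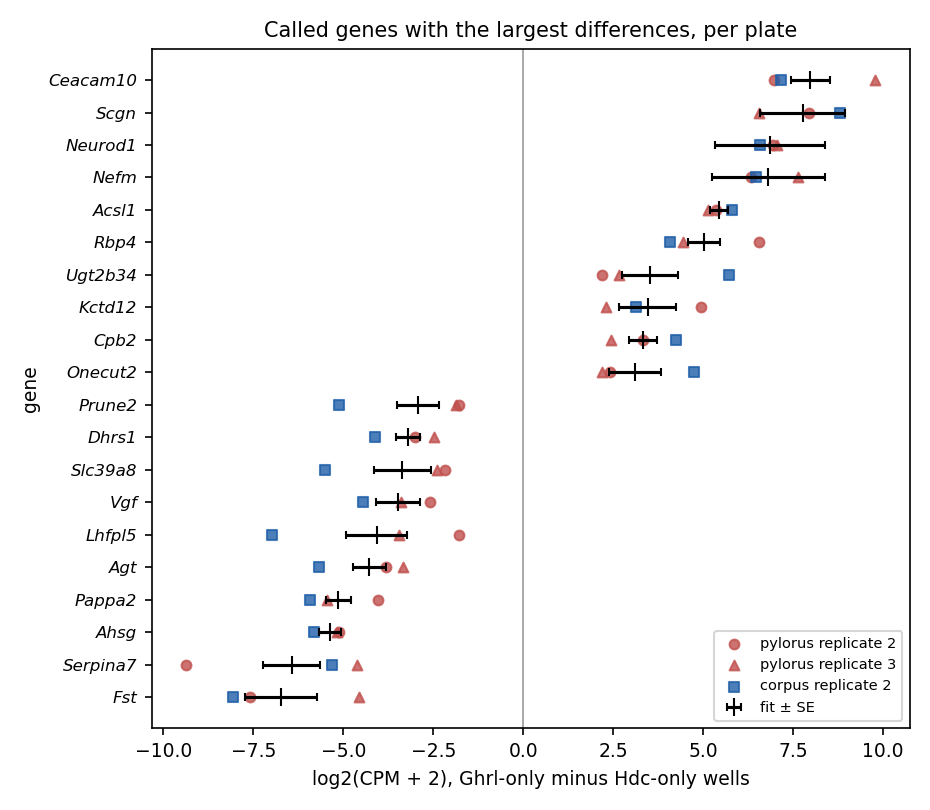
Difference in log2(CPM + 2) between Ghrl-only and Hdc-only wells for the 10 called genes with the largest change in each direction, per plate (red, pylorus replicates 2 and 3; blue, corpus replicate 2) and from the fit (black, ± SE). Every plate lies on the same side of 0 for each gene, from Ceacam10 at 7.97 to Fst at -6.73.

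The machinery of each hormone gave a mixed picture between these sets. Of 13 ghrelin partner genes 7 were tested: Acsl1 and the prohormone convertase Pcsk2 were higher in Ghrl-only wells and Pam, which amidates peptides, was lower. Pcsk2 averaged 236 ± 43.6 CPM in Ghrl-only wells and 63.9 ± 24.3 CPM in Hdc-only wells, and Pam 455 ± 99.0 CPM in Ghrl-only wells and 1368 ± 569 CPM in Hdc-only wells. Mboat4, the acyltransferase that activates ghrelin, did not pass, with 291 ± 26.4 CPM in Ghrl-only wells and 211 ± 48.6 CPM in Hdc-only wells (limma, adjusted p = 0.339), and it was near absent from pit and parietal reference wells at 1.15 ± 1.17 CPM (n = 7 plates). Cpe and Pcsk1 did not pass either. The call of Pcsk2 was lost when any of the 3 plates was left out, and that of Pam without pylorus replicate 3.

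Of 11 histamine partner genes 3 were tested and 1 fell. Slc18a2, the vesicular transporter that loads histamine into granules, averaged 1446 ± 672 CPM in Ghrl-only wells and 3661 ± 929 CPM in Hdc-only wells (log2 difference -1.42 ± 0.16; limma, adjusted p = 0.0011). The gastrin receptor Cckbr had 84.8 ± 104 CPM in Ghrl-only wells and 282 ± 74.1 CPM in Hdc-only wells and did not pass (limma, adjusted p = 0.150). Of 15 endocrine transcription factors 6 were tested, with Neurod1 higher and Insm1 lower in Ghrl-only wells, at 150.03 ± 7.10 CPM in Ghrl-only wells and 399 ± 113 CPM in Hdc-only wells. The call of Insm1 was lost without pylorus replicate 2 or 3. Among 8 somatostatin partners 3 were tested and Rbp4 was higher, among 8 gastrin partners only Neurod1 was tested, and none of 3 serotonin partners tested passed. The median log2 difference was 0.36 for the ghrelin list, -1.42 for the histamine list and 0.66 for the transcription factors, against -0.003 for all genes tested. Markers of other cells moved with the sets: 3 of 3 pit genes tested, 1 of 2 chief genes and 2 of 2 stress genes passed as higher in Ghrl-only wells, by log2 differences of 0.62 to 1.17. In CPM, Tff1 averaged 8415 ± 6314 in Ghrl-only wells and 5126 ± 3918 in Hdc-only wells, and Jun 1299 ± 437 in Ghrl-only wells and 578 ± 208 in Hdc-only wells. Of these, the pit genes and Fos lost the call without pylorus replicate 2 or 3. Their part in the result was not tested.

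The shared wells were set beside both single sets in the same 3 plates, over all 31 partner, transcription factor and granin genes with at least 50 CPM in 1 of the sets. CPM in this comparison are without TMM scaling, so values of the single sets differ from those of the fit. On the log2(CPM + 2) scale 26 of the 31 stood nearer to Hdc-only than to Ghrl-only wells and 5 nearer to Ghrl-only wells, a comparison chosen after seeing the data. Acsl1 averaged 62.0 ± 11.6 CPM in the shared wells, 1620 ± 611 CPM in Ghrl-only wells and 39.1 ± 4.16 CPM in Hdc-only wells (SD over 3 plates). Pcsk2 averaged 71.4 ± 12.3 CPM in the shared wells, 221 ± 45.3 CPM in Ghrl-only wells and 67.7 ± 24.0 CPM in Hdc-only wells. Nkx2-2, a transcription factor of endocrine lineages, was at 0 in the shared and the Hdc-only wells of these plates and at 134 ± 52.9 CPM in Ghrl-only wells. The 5 genes on the other side were Mboat4, Cpe, Bex2, Nnat and Gch1. Of these, Mboat4 averaged 336 ± 41.2 CPM in the shared wells, 274 ± 42.2 CPM in Ghrl-only wells and 226 ± 55.0 CPM in Hdc-only wells. All 6 granins stood nearer to Hdc-only wells, but granins chose those wells, and Ghrl and Hdc chose all 3 sets, so the values carry no test.

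High Sst was confined to 20 wells with at least 50 Sst UMIs, a bound chosen after seeing the data, and 19 of them passed 100. They numbered 2, 2 and 0 in pylorus replicates 1 to 3 and 7, 4, 1 and 4 in corpus replicates 1 to 4. Sst took 6.99% to 53.5% of the UMIs of such a well, with a median of 18.6%, and the well with most held 3027 Sst UMIs among 16176. Hdc was above background in 0 of the 20 and at 0 UMIs in 14, and Gast in 0. Ghrl was above background in 2, with 20 and 9 UMIs against 1135 and 1179 for Sst, in pylorus replicate 1 and corpus replicate 1. The other 4 Sst wells held at most 25 Sst UMIs, and 2 of them, of 1724 and 1770 UMIs in corpus replicate 2, were above background for Ghrl with 10 and 7 UMIs beside 5 Sst UMIs each.

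Hhex and other endocrine genes accompanied Sst. Hhex, the homeobox factor needed for D cells in mouse, was seen in 15 of the 20 high wells. The 20 Sst-only wells leave out the 2 high wells above background for Ghrl and include wells with 7 and 25 Sst UMIs. Their CPM come from corpus replicates 1, 2 and 4, the 3 plates with at least 3 such wells, and from no pylorus plate. Hhex averaged 403 ± 241 CPM there (SD over these plates), against 1.60 ± 2.35 CPM in pit and parietal reference wells (n = 7 plates). Pcsk2, the convertase that cleaves prohormones, reached 3798 ± 1540 CPM there, the islet factor Isl1 617 ± 199 CPM, Neurod1 433 ± 66.8 CPM and Rbp4 1091 ± 940 CPM. In the reference wells the same genes averaged 2.89 ± 2.63 CPM, 9.43 ± 8.88 CPM, 0.30 ± 0.62 CPM and 0.63 ± 0.82 CPM. These 4 genes were not particular to Sst wells. In the Ghrl-only wells of the 3 plates of the fit they averaged 221 ± 45.3, 163 ± 90.5, 217 ± 28.6 and 1127 ± 213 CPM, without TMM scaling. In the 6 Gast wells they stood at 1521, 247, 247 and 534 CPM. Hhex had 1 UMI in the 34 Ghrl-only wells and 0 in the Gast wells. Granins were above background in 16 of the 20 high wells. Among other somatostatin partners, Cckbr was at 0 UMIs in all 20 Sst-only wells and Casr had 1 UMI in them. Pyy had 106 UMIs in 3 of the 20 Sst-only wells, all of them in the library labelled corpus replicate 1, the only one with Gast.

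The 6 Gast wells differed widely in level within the library labelled corpus replicate 1. They held 2335, 559, 215, 21, 10 and 6 Gast UMIs among 6646, 2887, 2279, 1834, 3192 and 7492 UMIs. The highest therefore gave 35.1% of its UMIs to gastrin, and the lowest 0.0801%. All 6 held 0 Ghrl, 0 Hdc and 0 Tph1 UMIs and at most 4 Sst UMIs. The first 5 were granin wells with 7 to 81 granin UMIs, and the sixth held 0. Pax6, a factor of endocrine cells, was seen in 5 of 6 wells, Isl1 in 4, Neurod1 in 3, Pcsk2 in 4, Nkx6-3, an antral factor in mouse, in 2 with 8 UMIs, and Pdx1, an antral and islet factor, in 0. Outside the Gast wells, Nkx6-3 stood at 0.382, 0.121 and 0.221 CPM in pylorus replicates 1 to 3 and at 68.6, 0.510, 6.11 and 9.39 CPM in corpus replicates 1 to 4. It was thus highest in the library labelled corpus replicate 1, where 77 of the other 272 wells held a UMI of it, and lowest in the plates labelled pylorus. Pdx1 outside the Gast wells had 0 UMIs in the 3 pylorus plates and 6, 0, 3 and 1 UMIs in corpus replicates 1 to 4. Cck, a close relative of gastrin, had 16 UMIs, all of them in the well with 21 Gast UMIs. Tff2, a neck and antral gland peptide, stood at 23305 CPM in these wells and at 21924 CPM in the other wells of the same library. In the other plates it stood at 7100, 7166 and 6053 CPM in the pylorus and 3157, 4813 and 5601 CPM in corpus replicates 2 to 4. With 1 library there is no replicate of any of these values, and without that library no Gast is left.

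Tph1 followed mast cells and not the granins. All 20 Tph1 wells were mast wells and 0 were granin wells, and 266 of the 300 Tph1 UMIs lay in the 113 mast wells. The levels were small, from 5 to 16 UMIs per well, so the call sat at its lower limit of 5 in 6 of the 20. A Tph1 UMI was seen in 68 of 113 mast wells (60.2%), 1 of 141 Ghrl-and-Hdc wells (0.709%) and 14 of 546 reference wells (2.56%). The mast wells numbered 5, 25 and 30 in the pylorus plates and 4, 2, 22 and 25 in the corpus plates. In Tph1 wells the mast protease Cpa3 averaged 8762 ± 3570 CPM and the growth factor receptor Kit 1215 ± 439 CPM (SD over 5 plates). Of the other serotonin genes, the decarboxylase Ddc averaged 282 ± 194 CPM, Gch1 321 ± 183 CPM and Slc18a2 607 ± 268 CPM, while Fev and Lmx1a were at 0. The serotonin transporter Slc6a4 was seen in 1 well. Hdc, which mast cells are known to carry, was above background in 1 of the 113 mast wells. Its level there was 77.7, 223 and 117 CPM in the pylorus plates and 121, 143, 85.9 and 71.7 CPM in the corpus plates, against 5.94, 83.3 and 61.1 CPM and 1.67, 114, 29.3 and 55.05 CPM in the reference wells of the same plates. The mast well values rest on 72 Hdc UMIs in all, fewest where a plate held 2 to 5 mast wells. A Hdc UMI was seen in 35.4% of mast wells and 61.7% of reference wells, shares not adjusted for depth. A rise of Hdc in mast wells was not tested.

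Across the wells of a plate, the genes whose level ran most closely with a member were taken from the within-plate Pearson correlation of log2(UMIs per 10000 + 1), averaged over plates with at least 5 wells above background. Wells of a plate share library, depth and free RNA, so the values are a description. Hdc had the closest companions over all 7 plates: Gc, the vitamin D binding protein (mean r = 0.90), Vtn (0.85), Nov (0.85), Chga (0.84), Rab3c (0.82) and Chgb (0.80). Ghrl was nearest to Chga (0.64), Scg5 (0.62), Resp18 (0.62), Gc (0.59), Chgb (0.58) and Aplp1 (0.58), all of 7 plates, and to Hdc at 0.55 with a range of 0.26 to 0.68. Sst, over the 2 plates that qualified, was nearest to Hhex (0.59), Pcsk2 (0.57) and Scgn (0.57), followed by Emb and Isl1 (both 0.35) and Pcsk1n (0.33), and it had mean r = 0.07 with Ghrl. In corpus replicate 1 Gast was nearest to Gpx3 (0.69), Epb4.1l3 (0.50), Pim2 (0.47), Dcun1d3 (0.47), Cpe (0.46) and Cacna1a (0.46), values that rest on its 6 wells. In pylorus replicate 3, the only plate with 5 Tph1 wells, Tph1 was nearest to Il10ra (0.75), Ms4a2 (0.73), Cpa3 (0.71), Atp8b5 (0.70), Mcpt1 (0.70) and Tpsab1 (0.70).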

How the data were processed

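CEL-seq2 libraries were made from single cells, as the labels' protocols state. The deposited values are whole numbers of UMIs per gene and well, at most 4095, where UMIs of 6 bases allow 4096, and were read as raw counts from their values. Levels and shares are given without a correction for UMI collisions, which was run only as another setting. The build was mm9, per the submitters' processing notes. Aligner, counter and use of strand: not given in the sources used here. Because wells are headed by bare numbers, the tables could not be checked as counts, and limma 3.58.1 in R on log2 CPM took the place of a count model. No doublet caller was run.

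The members, partner lists and tests were chosen with earlier results of these data known. A gene without a row in a table was taken as 0. Background was the pooled rate of wells not above it, found by iteration. Fits used TMM scaling (trims of 30% and 5%), a pseudocount of 2, genes with about 10 counts at the median depth in enough sums for the smaller group and 15 in all, and Benjamini-Hochberg adjustment over all genes tested. Named genes were the members, partner genes from 50 CPM in a set, the 6 nearest genes per member, and 10 called genes per direction from 100 CPM with all plates agreeing. The well call and the region fit were tested on simulated data, the fit at a fixed spread for all genes and not that of the plates. The fit of Ghrl-only against Hdc-only wells had no simulation of its own. Intervals cover counting error only.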

Additional observations from a re-analysis of the deposited data

Results flagged for a closer look

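In each set of 4 corpus plates, a plate whose gap to its nearest neighbour was over 0.829 of the whole range counted as far from the others. This was met by 5 of 10 sets. The usual rate of about 1 in 20 holds for independent, normally spread values, and so gives no chance rate here. The sets share plates, and CPM and share of wells of a gene go together. Gast met the rule by both measures because it was at 0 in corpus replicates 2 to 4. Corpus replicate 2 stood apart for Ghrl at 4166 CPM, for Ghrl wells above background at 22.2% and for Hdc at 1531 CPM, and it held 102 of the 296 granin wells. The library labelled corpus replicate 1 stood apart for Gast at 1240.2 CPM and 2.16% of wells.

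Wells under the minimum of 1000 UMIs were in no comparison. In these, Sst took 32 of 321 UMIs of a well of corpus replicate 1 and 51 of 848 in a well of corpus replicate 3. Ghrl took 271 of 748 UMIs of a well of pylorus replicate 1 and 50 of 632 in a well of pylorus replicate 3.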

How the results depend on the processing

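Of the values that answer a comparison, 293 kept their direction and size across settings, 31 moved and 9 reversed. None of the region differences passed its test in any setting, so the reversals are of values within the spread: the Hdc share difference was 3.52 points with the strict call and 0.723 with wells thinned to 1000 UMIs. Without corpus replicate 2 the share differences were 0.993 for Ghrl, 1.94 for Hdc and -0.0772 for Tph1, and without pylorus replicate 3 that of Tph1 was -0.0219. The region log2 difference of Hdc was -0.49 without corpus replicate 1 and -0.10 in the 5 plates with few spike-ins, and that of Tph1 was -0.10 without corpus replicate 2. The causes were not tested.

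Wells above background for Ghrl and Hdc numbered 65 with the strict call, 59 with a fixed level of 50 UMIs per 10000 and 46 with thinned wells, where the number of UMIs left per well limits the call. Wells above background for Ghrl and Sst numbered 1 with the strict call, 0 with the fixed level, 1 with thinned wells, 1 in wells with at least 3000 UMIs and 2 in the 5 plates with few spike-ins, a setting chosen after seeing the data. Sst and Hdc shared 1 well with the loose call and 1 with a correction for UMI collisions. As a mean over plates, the share of wells with no other member was 100% for Sst with the strict call and 100% with the fixed level. For Ghrl it was 59.2% with the fixed level and 63.4% thinned, against 24.6%, and for Hdc 56.6% with the fixed level and 56.7% thinned, against 43.2%.

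The region fit called 0 genes with no filter on low counts, 0 with voom weights and 0 in the 5 plates with few spike-ins. The fit of Ghrl-only against Hdc-only wells called 263 genes with no filter and 41 with no plate block. Of its 30 called genes named in the text or in its partner lists, 13 lost the call with no plate block, 17 without pylorus replicate 3, 12 without pylorus replicate 2 and 5 without corpus replicate 2, and none changed direction. A fit on plates with at least 10 wells of each set could not be run, since no plate had 10 Ghrl-only wells.

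With each plate left out in turn, the region log2 difference ran from 0.85 to 1.84 for Ghrl, -4.98 to -0.67 for Sst, -0.49 to 1.36 for Hdc and -0.10 to 0.83 for Tph1. The share difference ran from -5.10 to 0.993 points for Ghrl, -1.49 to -0.625 for Sst, -0.719 to 0 for Gast, -6.66 to 1.94 for Hdc and -0.0772 to 0.456 for Tph1. The wells with no other member ran from 16.6% to 27.9% for Ghrl, 73.6% to 84.7% for Sst and 40.2% to 45.2% for Hdc. Wells for Ghrl and Hdc ran from 88 to 139, those for Ghrl and Sst from 2 to 4, genes called in the region fit from 0 to 2, and genes called between Ghrl-only and Hdc-only wells from 32 to 75.

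The replicate numbers of the plates do not settle whether plates were paired. Plates were correlated on log2(CPM + 2) after each gene's mean over its region was subtracted, so the values are not those of whole profiles. Same-numbered pylorus and corpus plates correlated at 0.45, -0.11 and 0.47, and 0.45 and 0.47 were the highest values of pylorus replicates 1 and 3. Pylorus replicate 3 also reached 0.46 with corpus replicate 4, and pylorus replicate 2 correlated best with corpus replicate 3, at 0.37. Pylorus replicate 1 and corpus replicate 1 also shared a high spike-in content and low depth. Pairing and a shared batch cannot be told apart here. With the replicate number as a block, the region fit called 1 gene, and the log2 differences were 0.94 for Ghrl, -2.88 for Sst, 0.61 for Hdc and 0.58 for Tph1. Few plates, unknown animals and rare wells limit these values.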
